A study of Mus musculus with 6 samples.

Results

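Cathepsins and legumain are the proteases of the endosome and lysosome. The genes described are Ctsa, Ctsb, Ctsc, Ctsd, Ctsh, Ctsk, Ctsl, Ctss, Ctsz and Lgmn, and every probe set annotated to exactly 1 of these symbols was taken. This gave 21 probe sets for 10 genes, of 45101 probe sets and 18194 genes named singly on the array. Ctsb had 5 probe sets, Ctsc and Ctsz had 3 each, Ctsa, Ctsh and Ctsl had 2 each, and Ctsd, Ctsk, Ctss and Lgmn had 1 each.

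Expression was measured on Affymetrix Mouse430_2 arrays, 1 per sample, in dendritic cells grown from the bone marrow of C57BL/6 mice for 6 days with GM-CSF at 10 ng/ml. Cells positive for CD11c and MHC class II were sorted at the same time into a Ly6G+ group (Ly6G+ DC, 3 arrays) and a Ly6G- group (Ly6G- DC, 3 arrays), numbered 1 to 3 in each. Strain, culture and the CD11c and MHC class II gates were common to both groups, so the Ly6G gate is the labelled difference. Mouse age, and whether each array had its own culture or animal, are not given in the labels. P-values therefore measure only the spread between these arrays, which may be technical.

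In antigen-presenting cells these proteases cut endocytosed proteins into peptides and degrade the invariant chain that blocks the MHC class II groove until a peptide is loaded. Most are papain-like cysteine proteases. Cathepsin D is an aspartic protease, cathepsin A a serine carboxypeptidase, and legumain cuts after asparagine. They are made as inactive precursors, carried to the lysosome by mannose 6-phosphate receptors, activated at acid pH, and the papain-like members are held in check by cystatins and stefins.

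The 6 arrays differed in ways that the sort does not account for. Signals of hybridization controls, bacterial and phage transcripts spiked into the samples, separated a low side of Ly6G+ DC 1, Ly6G+ DC 3 and Ly6G- DC 1 (geometric means of 1529 to 2039) from a high side of Ly6G+ DC 2, Ly6G- DC 2 and Ly6G- DC 3 (6688 to 12842). Actb, read at its 3' and its 5' end, gave 3' over 5' signals of 1.17 to 1.49 on low-side arrays and of 3.98 to 6.85 on high-side arrays. The titles of both arrays numbered 1 carry a different array name from the other 4. Each within-side difference has a single array in one of its groups. In bulk arrays, fewer cells of a type and less RNA per cell cannot be told apart.

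None of the 21 probe sets passed the threshold, an adjusted p under 0.05 from limma over all 28254 probe sets bright enough to test, where the share called over all probe sets was 0.0%. The smallest adjusted p among the proteases was 0.836, and the smallest over all probe sets was 0.165. At an unadjusted p under 0.05 there were 5 protease probe sets, all higher in Ly6G+ DC, where 2.75% of all probe sets were higher and 2.87% lower. They were both probe sets of Ctsl, that of Ctsk, and 1 each of Ctsb and Ctsc. Groups did not overlap for 3 probe sets, all higher in Ly6G+ DC (1 each of Ctsl, Ctsc and Ctsb), where 4.49% of all probe sets were higher and 7.24% lower without overlap. The log2 fold change of signal + 16, Ly6G+ over Ly6G-, was positive for 18 of 21, where 45.0% of all probe sets were positive and 55.0% negative. Its median was 0.36, against -0.06 over all probe sets. The Ctsb probe set in these counts, 1444987_at, was above the filter level on Ly6G+ arrays alone, so its direction was fixed by the filter. Among the 20 others, 17 were positive, 4 had an unadjusted p under 0.05 and 2 did not overlap, with a median of 0.36.

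Scaling and the array splits bear on that median. Scaling each array to a common median raised the median of all probe sets by 0.30, and then 20 of 21 protease probe sets and 68.1% of all were positive. Relative to all probe sets, the median of the proteases was 0.43 higher with the authors' scaling, 0.40 with quantile normalization and 0.46 with the common median. Blocking on the hybridization control side, 16 of 21 were positive, where 48.0% of all probe sets were, and 0 passed. The median of the proteases was then 0.13, only 0.16 higher than that of all probe sets. Leaving out an array moved the median to 0.19 for Ly6G+ DC 1 or Ly6G- DC 3, to 0.23 for Ly6G- DC 2, to 0.58 for Ly6G+ DC 2 and to 0.67 for Ly6G- DC 1. Among all probe sets 0.0743% passed with the array name as a block and 0.0849% when Ly6G- DC 1 was left out, and 0 of them were protease probe sets.

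**Figure D1:**
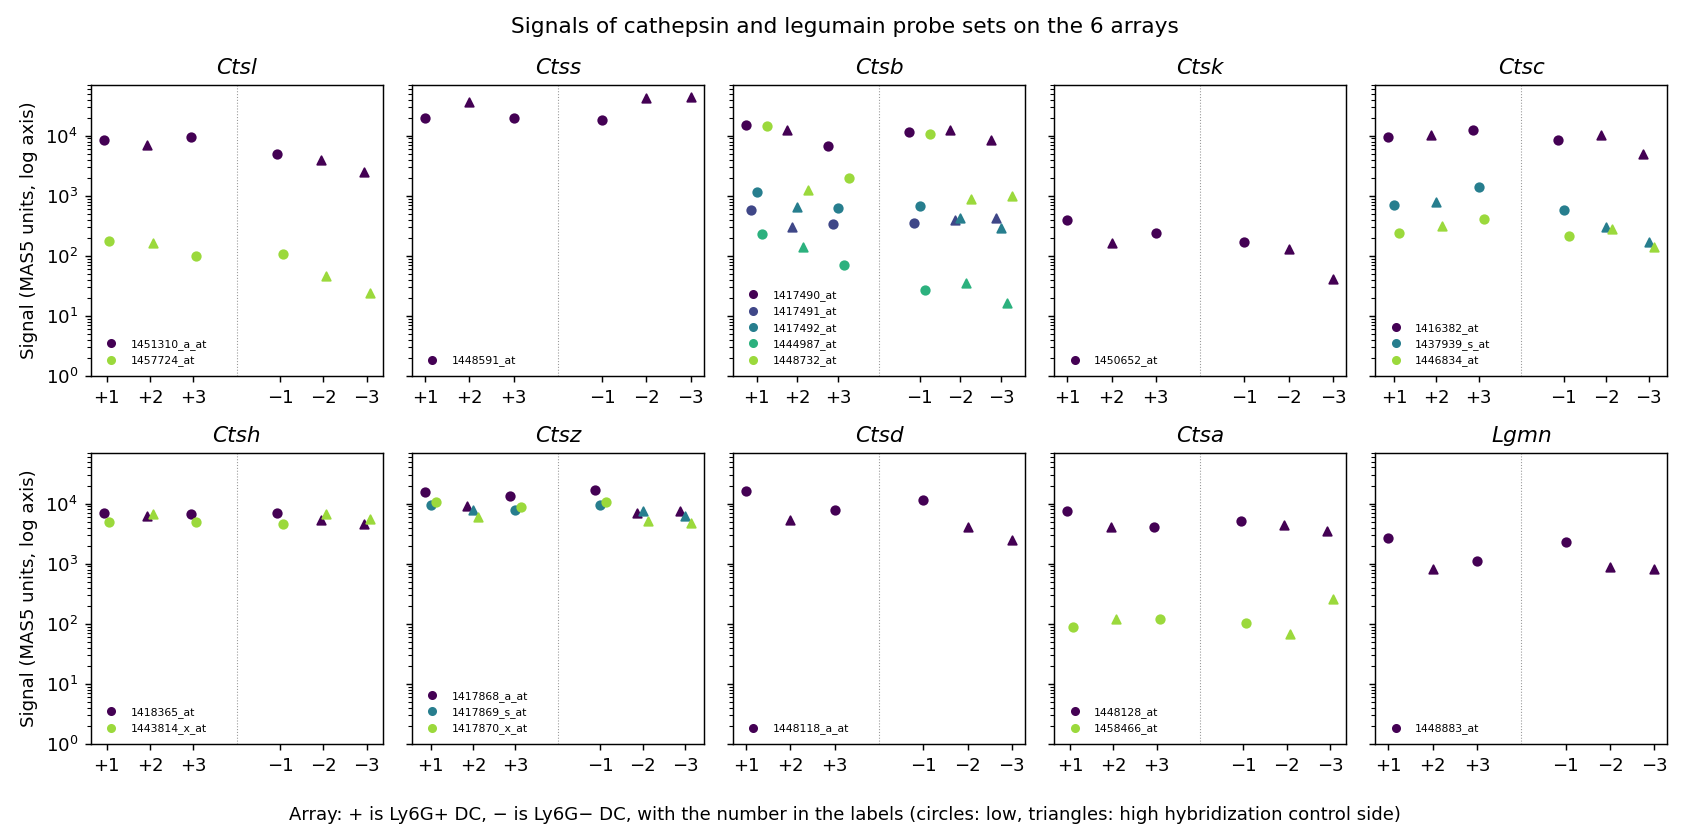
Signal (y, MAS5 units on a log axis) of each probe set of the 10 protease genes on the 6 arrays (x, Ly6G+ DC 1 to 3, then Ly6G- DC 1 to 3). Colours are probe sets, circles the low and triangles the high hybridization control side; the brighter Ctsl probe set lies between 7012 and 9656 in Ly6G+ DC and between 2484 and 5055 in Ly6G- DC.

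The letters CACGTG form the core of the site bound by TFEB and its relatives, transcription factors of lysosomal genes, and the promoters of the proteases were searched for them in RefSeq sequence (GRCm38.p6), from 250 bases before to 50 after each gene start. CACGTG reads the same on both strands. Promoters were at hand for 8 of the 10 genes, as 10 windows because Ctsa and Lgmn have 2 starts each. CACGTG was present in 4 of these windows (1 each of Ctsa, Ctsd, Ctsl and Lgmn) and in 7.15% of all 32851 promoter windows of this length. The longer TCACGTGA, which contains it, was present in 2 (Ctsa and Ctsd) and in 0.974% of all. These 2 windows hold CACGTG at 2 places each, and the place inside TCACGTGA is shown. The stretches around the match are shown because these 4 genes include Ctsl, whose brighter probe set did not overlap between the groups. They also include Ctsd, Ctsa and Lgmn, whose brightest probe sets were highest on the arrays numbered 1. Those of Ctsd and Lgmn were also lower on every array of the high hybridization control side than on the low side. Capitals mark CACGTG, and the sequences run 5′ to 3′ on the strand of the gene.
Ctsl (chr13:64370734-64370770, minus strand): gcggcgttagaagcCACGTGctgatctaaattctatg
Ctsd (chr7:142387903-142387942, minus strand): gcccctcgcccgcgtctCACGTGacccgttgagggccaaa
Lgmn (chr12:102439119-102439158, minus strand): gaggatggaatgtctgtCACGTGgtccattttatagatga
Ctsa (chr2:164833744-164833772, plus strand): aacaatgagcaaactgtCACGTGatgcag

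The match began 236 bases before the gene start in Ctsl, 98 in Ctsd, 49 in Lgmn and 12 in Ctsa. Of the probe sets of the genes with the match, 1451310_a_at of Ctsl did not overlap between the sorted groups and the others, 1457724_at of Ctsl included, did. Ctsc, Ctsk, Ctss and Ctsz had no CACGTG in their windows. A match is a run of letters and not a bound site, and a link between matches and fold changes was not tested. The 4 genes of the TFEB family, named after their values were seen, did not share a direction. Tfeb had a log2 fold change of 0.26 ± 0.51, Mitf 0.58 ± 0.27, Tfec 1.16 ± 0.56 and Tfe3 -0.25 ± 0.26 (SE), and 0 passed limma over all genes, also at an unadjusted p under 0.05. Mitf was higher on every Ly6G+ array, where 4.95% of all genes were higher without overlap, and the groups overlapped for the other 3.

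Ctsl, the endopeptidase cathepsin L, was the only one of the 10 genes whose brightest probe set separated the sorted groups without overlap. Signals of its bright probe set 1451310_a_at were 8518, 7012 and 9656 on Ly6G+ DC 1 to 3 and 5055, 3996 and 2484 on Ly6G- DC 1 to 3. Every Ly6G+ array was above every Ly6G- array, with means of 8396 ± 1326 and 3845 ± 1292 (SD, n = 3). The log2 fold change was 1.17 ± 0.35 (SE), with an unadjusted p of 0.00783 and an adjusted p of 0.836 by limma. Low-side arrays alone gave 0.84, high-side arrays 1.15, the arrays numbered 1 gave 0.75 and the others 1.38. Blocking on the hybridization control side gave 0.996 ± 0.25. Leaving out each array in turn gave 0.89 to 1.40, and the adjusted p was 0.154 without Ly6G- DC 1. The dim probe set 1457724_at had signals of 176, 162 and 100 on the Ly6G+ arrays against 108, 45.5 and 24.2 on the Ly6G- arrays. These groups overlapped at Ly6G+ DC 3 and Ly6G- DC 1. Its Ly6G- mean lay under the 40th percentile of those arrays, which allows only a lower bound, at least 1.76-fold higher in Ly6G+ DC.

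Ctss, the cathepsin S that removes the last pieces of invariant chain in dendritic cells, overlapped between the sorted groups. Its probe set 1448591_at had signals of 19780, 35934 and 19421 on the Ly6G+ arrays against 18150, 41997 and 43249 on the Ly6G- arrays. The 3 lowest signals were those of the low hybridization control side and the 3 highest those of the high side, across both groups. The log2 fold change was -0.42 ± 0.48 (SE), it was -0.07 ± 0.21 with that side as a block, and quantile normalization turned it to 0.11. By the rule for likeness, the 3 genes outside the family whose log2 signals over the 6 arrays correlated best with Ctss were Sf3b4, Tmsb4x and Qdpr (Pearson's r of 0.998, 0.996 and 0.996, of 5296 candidate genes). These arrays share the same split, and Tmsb4x, for example, ran from 26674 to 29792 on low-side and from 57921 to 70271 on high-side arrays.

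Ctsb, cathepsin B, is an endopeptidase that also removes dipeptides from the ends of proteins, and its 5 probe sets did not give 1 pattern. The bright probe set 1417490_at had signals of 14794, 12631 and 6781 on the Ly6G+ arrays against 11478, 12241 and 8526 on the Ly6G- arrays, which overlapped, with a log2 fold change of 0.03 ± 0.39 (SE). The probe set 1448732_at read 14428 and 10670 on the arrays numbered 1 of either group, but 1268 and 1999 on Ly6G+ DC 2 and 3 and 874 and 985 on Ly6G- DC 2 and 3. The lower number 1 array was 5.34 times the highest other array, while the sorted groups overlapped with a log2 fold change of 0.66 ± 1.03. The highest of the 6 signals was 16.5 times the lowest for 1448732_at and 2.18 times for 1417490_at. Both are annotated to the same gene, and the part of the array name in this was not tested.

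The remaining Ctsb probe sets were dimmer. Probe set 1417492_at had signals of 1176, 658 and 631 on the Ly6G+ arrays against 675, 426 and 294 on the Ly6G- arrays, with Ly6G- DC 1 inside the Ly6G+ range and a log2 fold change of 0.82 ± 0.38 (SE). Probe set 1417491_at had 587, 308 and 345 against 352, 399 and 427, with a log2 fold change of 0.02 ± 0.33. Probe set 1444987_at had signals of 231, 140 and 70.0 on the Ly6G+ arrays against 27.2, 35.1 and 16.3 on the Ly6G- arrays. It was above the 40th percentile on all 3 Ly6G+ and on 0 Ly6G- arrays, so it entered the test only through the group in which it was high. It was at least 2.0-fold higher in Ly6G+ DC.

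Ctsk, the collagen-degrading cathepsin K known from osteoclasts, had signals of 395, 162 and 240 on the Ly6G+ arrays against 171, 132 and 40.9 on the Ly6G- arrays (1450652_at). The groups overlapped at Ly6G+ DC 2 and Ly6G- DC 1. Every array of the low hybridization control side was above every array of the high side, across both groups. The log2 fold change was 1.19 ± 0.50 (SE), with an unadjusted p of 0.0395 and an adjusted p of 0.836 by limma. It was 0.79 among low-side and 0.96 among high-side arrays, and 0.88 ± 0.43 with that side as a block. It ranged from 0.67 without Ly6G- DC 3 to 1.53 without Ly6G- DC 1. Of 9 measured osteoclast markers 5 had positive and 4 negative values, with a median of 0.18, and 0 passed. At an unadjusted p under 0.05 there was 1, Atp6v0d2, named after its value was seen. It was higher in Ly6G+ DC, with a log2 fold change of 0.89 ± 0.38 and overlapping groups. The brightest of the 9 markers, Car2, a carbonic anhydrase, and Dcstamp, a fusion receptor, had log2 fold changes of -0.38 and 0.18. Itgb3, among the positive markers, was below the 40th percentile on every Ly6G- array, so the filter fixed its direction.

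Ctsc encodes cathepsin C, the dipeptidyl peptidase that activates the serine proteases of granules. All 3 of its probe sets had positive values. The bright probe set 1416382_at had signals of 9608, 10372 and 12444 on the Ly6G+ arrays against 8411, 10401 and 4949 on the Ly6G- arrays. Those of Ly6G- DC 2 and Ly6G+ DC 2 were nearly equal, so the groups overlapped, with a log2 fold change of 0.50 ± 0.37 (SE). Probe set 1437939_s_at had 712, 801 and 1395 on the Ly6G+ arrays against 583, 299 and 173 on the Ly6G- arrays, with no overlap. Its log2 fold change was 1.52 ± 0.44, with an unadjusted p of 0.00632 and an adjusted p of 0.836 by limma. In Affymetrix names the suffix _s_at marks probes that can match several transcripts, so this signal may not be of Ctsc alone. It was 0.28 between the arrays numbered 1 and 2.14 among the others, and without Ly6G- DC 1 the adjusted p was 0.0827. Probe set 1446834_at had 243, 315 and 412 against 211, 283 and 139, with a log2 fold change of 0.60 ± 0.36.

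The targets of cathepsin C that could be measured did not share a direction, and most of them were dim. Of 5 measured genes on the list of serine proteases that it activates, 2 had positive and 3 negative values and 0 passed, also at an unadjusted p under 0.05. Elane, neutrophil elastase, had a log2 fold change of 0.79 ± 0.64 and Prtn3, proteinase 3, one of -0.47 ± 0.38 (SE). The signals of Gzmb, Mcpt8 and Tpsb2 were 4.83 to 124, where the 40th percentile of the arrays was 36.0 to 61.7. Their signs are therefore poorly measured. Ctsg, Gzma, Gzmc and Cma1, also on the list, were too dim to test.

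Ctsh, an aminopeptidase, and Ctsz, a carboxypeptidase, overlapped between the groups with every probe set. Ctsh probe set 1418365_at had signals of 7084, 6295 and 6625 on the Ly6G+ arrays against 6851, 5244 and 4629 on the Ly6G- arrays. Probe set 1443814_x_at of the same gene had 4936, 6834 and 4852 against 4502, 6738 and 5639. The log2 fold changes were 0.28 ± 0.31 and -0.02 ± 0.32 (SE). The first was lower on each array of the high hybridization control side than on the low side, and the second was higher on each. The probe sets annotated to this gene thus lay on opposite sides of that split. Whether 1443814_x_at reads Ctsh alone was not tested. The highest of 6 signals was 1.53 and 1.52 times the lowest.

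All 3 probe sets of Ctsz were highest on the arrays numbered 1. Probe set 1417868_a_at read 15583 and 16682 on the arrays numbered 1 of Ly6G+ DC and Ly6G- DC, against 8981 and 13383 on the other Ly6G+ arrays and 7025 and 7505 on the other Ly6G- arrays. Probe set 1417870_x_at read 10721 and 10640 on the arrays numbered 1, with 4789 to 8643 on the other 4. Probe set 1417869_s_at had 9480 and 9365 on the arrays numbered 1 and 6231 to 7868 on the others. The 3 probe sets had log2 fold changes between groups of 0.36 ± 0.43, 0.35 ± 0.41 and 0.14 ± 0.33 (SE), and 0.05, 0.05 and 0.04 with the hybridization control block.

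Ctsd, the aspartic protease, had signals of 16492, 5317 and 7979 on the Ly6G+ arrays against 11692, 4139 and 2459 on the Ly6G- arrays (1448118_a_at). In each group the array numbered 1 was the highest, and the groups overlapped. The log2 fold change was 0.85 ± 0.59 (SE), and it was 0.35 ± 0.34 with the hybridization control block, and -0.03 among low-side and 0.73 among high-side arrays. Leaving out an array gave 0.35 for Ly6G- DC 3, 0.40 for Ly6G+ DC 1 and 1.47 for Ly6G- DC 1. Lgmn, which activates several cathepsins by cutting their chains, had 2666, 819 and 1103 on the Ly6G+ arrays against 2293, 872 and 808 on the Ly6G- arrays (1448883_at). Its lower number 1 array was 2.08 times the highest other array. The log2 fold change was 0.19 ± 0.51, and -0.22 ± 0.34 with the hybridization control block. Ctsa, which also protects other lysosomal enzymes from degradation, had 7429, 4043 and 4088 on the Ly6G+ arrays against 5045, 4332 and 3562 on the Ly6G- arrays by probe set 1448128_at, with a log2 fold change of 0.22 ± 0.35. Its dim probe set 1458466_at had 89.1, 118 and 120 against 103, 67.0 and 261, with -0.17 ± 0.48.

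Both arrays numbered 1 were above the other 4 for 9 of 21 protease probe sets (3 of Ctsz, 2 of Ctsb, and 1 each of Ctsa, Ctsd, Ctsh and Lgmn), where 14.3% of all probe sets were. All arrays of the high hybridization control side were below all of the low side for 7, where 11.5% of all probe sets were, and above for 2 (Ctss and 1443814_x_at of Ctsh), where 17.3% were. Within the arrays numbered 1 the log2 fold change was positive for 19 of 21, among the others for 16, on the low side for 13 and on the high side for 17. It was positive in all 4 of these subsets for 9 probe sets, namely both of Ctsl, all 3 of Ctsc, that of Ctsk, 2 of Ctsb (1417492_at and 1444987_at) and 1448128_at of Ctsa. Without 1444987_at, whose direction the filter fixed, these were 8. The subsets share arrays, since both arrays numbered 1 are on the low side and all high-side arrays are among the others. They are therefore not 4 separate checks. The shares of all probe sets that were positive in these subsets were not counted.

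**Figure D2:**
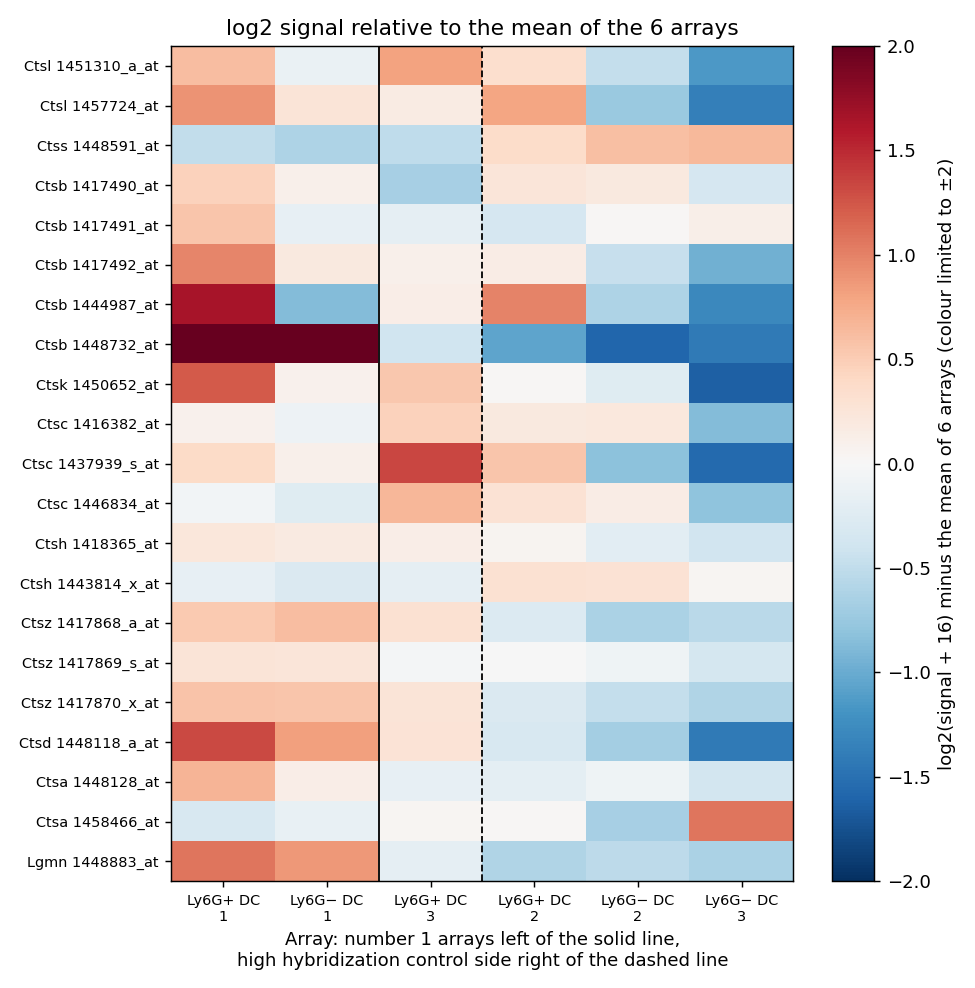
log2(signal + 16) of each protease probe set (rows) minus its mean over the 6 arrays (colour, limited to ±2), with arrays ordered by array name and hybridization control side (columns). Lgmn and 1448732_at of Ctsb are high on the 2 arrays numbered 1 of both groups, Ctss is high on the 3 arrays of the high side, and 1451310_a_at of Ctsl is high on the 3 Ly6G+ arrays.

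**Figure D3:**
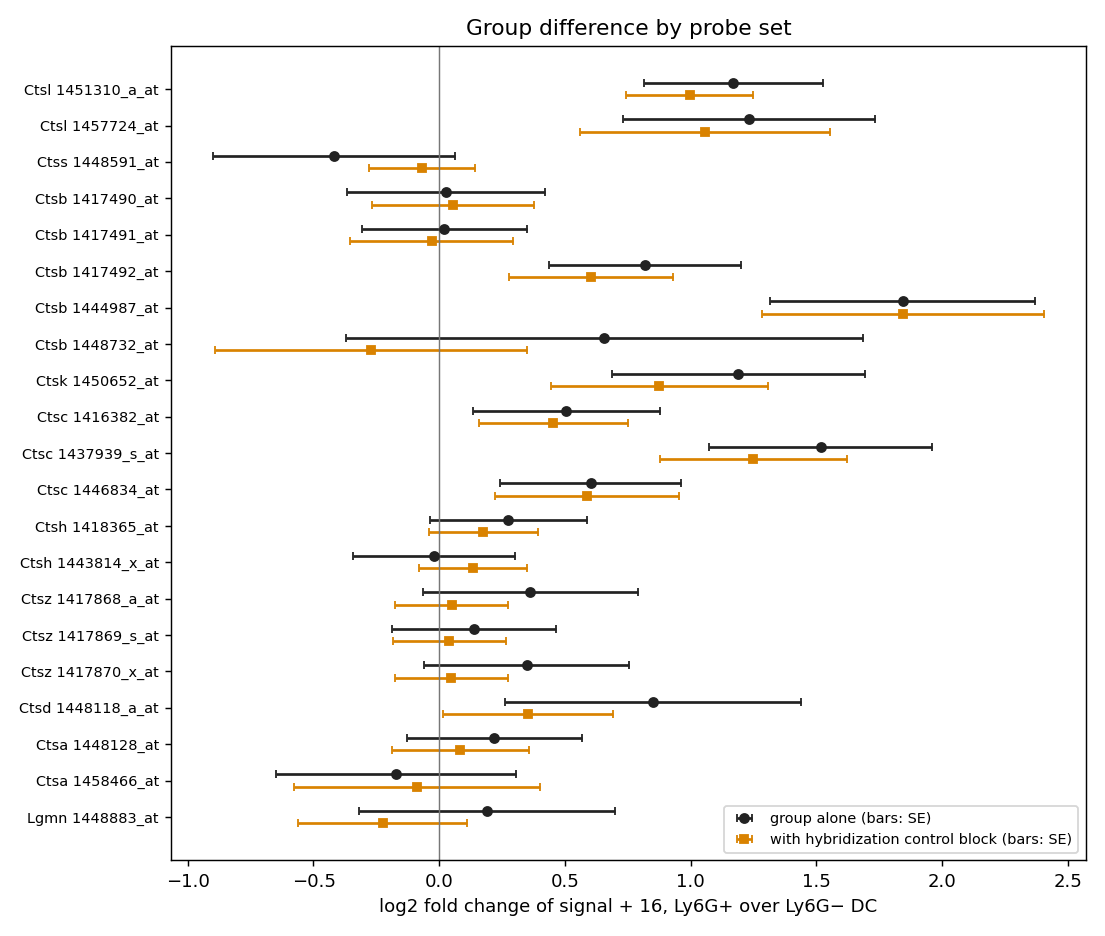
log2 fold change of signal + 16, Ly6G+ over Ly6G- DC (x), for each protease probe set (rows), from limma with the group alone (circles) and with a block on the hybridization control side (squares); bars are SE. Ctsl 1451310_a_at has 1.17 and 0.996, and Ctsd 0.85 and 0.35.

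The natural inhibitors and a substrate of the proteases were set against them within each array. Cst3, which encodes cystatin C, a secreted inhibitor of papain-like cathepsins, had signals of 17062, 16719 and 19303 on the Ly6G+ arrays against 22292, 20211 and 24500 on the Ly6G- arrays. It was lower on every Ly6G+ array, where 7.86% of all genes were lower without overlap, and its log2 fold change of -0.33 ± 0.36 (SE) did not pass. The log2 signal of Ctsl minus that of Cst3 was -1.001, -1.25 and -0.998 on the Ly6G+ arrays against -2.14, -2.33 and -3.29 on the Ly6G- arrays. This difference was 1.505 higher in Ly6G+ DC without overlap, by an exact two-sided permutation test p = 0.1, the smallest p that 3 arrays against 3 allow. Since Ctsl and Cst3 each separated the groups, in opposite directions, this non-overlap and its p follow from those values and add nothing to them. Low-side arrays gave 1.14 and high-side arrays 1.56. The log2 signal of Ctss minus that of its substrate Cd74, the invariant chain, was -0.21, 0.01 and 0.80 on the Ly6G+ arrays against -0.46, -0.37 and -0.38 on the Ly6G- arrays. It was 0.60 higher in Ly6G+ DC (exact two-sided permutation test, p = 0.1), with 0.30 to 0.80 when each array was left out and the low value without Ly6G+ DC 3. A level within an array compares changes of a pair of genes and gives no level of one against the other.

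**Figure D4:**
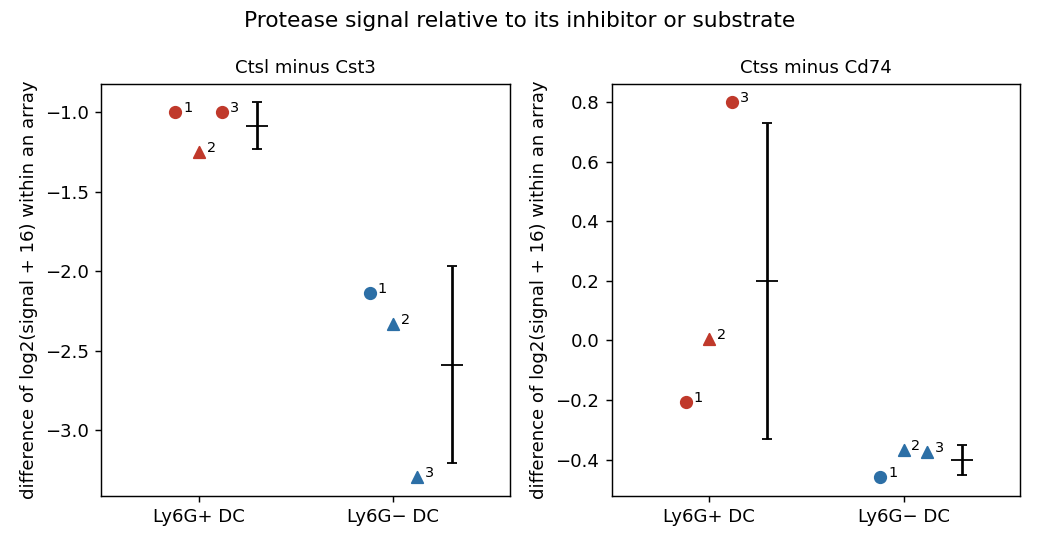
Difference of log2(signal + 16) within an array (y) for Ctsl minus Cst3 and for Ctss minus Cd74, in Ly6G+ and Ly6G- DC (x); points are arrays with their number, circles the low and triangles the high hybridization control side, and bars the mean ± SD of 3 arrays. Ctsl minus Cst3 averages -1.08 in Ly6G+ DC and -2.59 in Ly6G- DC.

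Other genes of the pathway were described from lists, with 1 probe set per gene and limma over 13262 genes, of which 0.0% passed, 44.3% had positive and 55.7% negative values (median -0.07), and 3.39% were higher and 3.51% lower at an unadjusted p under 0.05. Counts at that unadjusted level follow each list. Of 5 measured cystatins and stefins, cytosolic and secreted inhibitors of cathepsins, 3 had positive values, 0 passed and 3 were at the unadjusted level, with a median of 1.71. Cstb, stefin B, had a log2 fold change of -0.15 ± 0.43 (SE). The stefin Stfa2l1, named after its value was seen, had 4.40 ± 0.64 and an adjusted p of 0.0578 by limma. Of 32 measured soluble lysosomal enzymes and cofactors 21 were positive, with a median of 0.16, and 0 passed, also at the unadjusted level. Psap, the precursor of the saposins, had 0.28 ± 0.39, and Npc2, a cholesterol carrier, -0.45 ± 0.37. Of 27 genes of the lysosomal membrane and its proton pump 16 were positive, with a median of 0.07. Among these 27, 0 passed and 1, Atp6v0d2, was higher at the unadjusted level. Lamp1, a main membrane protein, had -0.21 ± 0.37 and Laptm5 -0.48 ± 0.50.

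Sorting factors and the partners of antigen processing were listed in the same way. Of 15 genes for mannose 6-phosphate sorting and lysosome regulation 7 were positive, with a median of -0.15. Among these 15, 0 passed and 1, Gga3, was lower at the unadjusted level. M6pr, a mannose 6-phosphate receptor, was at 0.61 ± 0.46 and Gga2, an adaptor of that route, at -0.76 ± 0.41 (SE). All 10 measured genes of the MHC class II pathway had negative values, with a median of -0.66, 0 passed and 2 were at the unadjusted level. Cd74 had -1.02 ± 0.54 and H2-Aa -1.30 ± 0.74, and the cells had been gated on MHC class II. Of 7 measured genes of endosomal Toll-like receptors, which cathepsins and legumain cut into their active form, 3 were positive and 4 negative. Among these 7, 0 passed and 1, Tlr7, was higher at the unadjusted level. The receptors, named after their values were seen, had 1.61 ± 0.44 (Tlr7), 0.42 ± 0.27 (Tlr13), -0.26 ± 0.84 (Tlr9) and -0.73 ± 0.63 (Tlr8). Tlr7 and Tlr13 were higher on every Ly6G+ array, where 4.95% of all genes were higher without overlap. Hsp90b1, their chaperone, had 0.56 ± 0.33, and Unc93b1, their carrier, -0.03 ± 0.41. Among other cathepsins 5 of 14 were bright enough to test and 2 of them were positive, with Ctse at 0.56 ± 0.42 and Ctso at 0.42 ± 0.34. Of the 5, 0 passed the threshold and 1, Cts8, was lower at the unadjusted level. Cts8 was dim, with signals of 51.5, 10.6 and 6.35 on the Ly6G+ arrays against 49.1, 87.4 and 93.2 on the Ly6G- arrays.

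Markers of other cell types were set beside the protease values. All 17 measured neutrophil markers had positive values, with a median of 3.20. Their summed signal was 88300 to 116000 in Ly6G+ DC and 11800 to 29500 in Ly6G- DC. Cxcr2, Lrg1 and Cd177 were below the 40th percentile on every Ly6G- array. They entered the test only through Ly6G+ arrays, so the filter fixed their direction, here and in the count at the unadjusted level. S100a8, on the neutrophil list, read 22222 to 30299 in Ly6G+ DC and 925 to 4628 in Ly6G- DC. The 7 monocyte markers were all positive (summed signal of 38400 to 39100 against 8870 to 23800). Of 15 macrophage markers 11 were positive (47000 to 61100 against 41900 to 69800), and of 16 dendritic cell markers 15 were negative (50500 to 74200 against 90100 to 138000). Of 7 mast cell, basophil and eosinophil markers 5 were positive (2290 to 4220 against 1440 to 1990). The 2 brightest genes of each list had log2 fold changes of 0.59 (Mmp8) and 3.53 (S100a8) for neutrophils, 1.85 (Chil3) and 0.75 (Fn1) for monocytes, -0.08 (Csf1r) and 0.07 (Gpnmb) for macrophages, -1.18 (Fscn1) and -0.76 (Ccl22) for dendritic cells, and 2.61 (Prg2) and -0.25 (Gata2) for the last list. Among these lists 0 genes passed in limma on the group alone, with 14, 6, 3, 9 and 2 at the unadjusted level in that order, and their part in the values of Ctsl, Ctsc and Ctsk was not tested. Ly6g itself was not analysed here.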

How the data were processed

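Each value is a probe set's intensity on a linear scale, as deposited by the authors, with every array scaled to a mean of 250.0 once the top and bottom 2% are trimmed. Affymetrix Expression Console 2.0, MAS5 and GCOS stand in the submitters' processing notes; further settings are not given in the sources used here. The platform annotation names 1 symbol for 34958 probe sets, several for 932 and none for 9211, and genes were named from the first kind only.

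Tests used log2(signal + 16), which understates changes of dim genes. Without the 64 control probe sets, those exceeding the 40th percentile of an array on 3 or more of the 6 arrays were tested (28254). All 21 protease probe sets were among them, 18 exceeding it on all 6. The test was limma (version 3.58.1, R 4.3.3) with eBayes modelling variance by intensity and Benjamini-Hochberg adjustment. It was also run on simulated data, with changes larger than any protease log2 fold change and without the array splits. That run therefore gives no measure of power for the protease genes. Errors are limma's SE or the SD over 3 arrays, whose number limits the precision. A fold is written "at least" where the dimmer group's mean lay below the 40th percentile of its arrays, with each of those arrays set at the higher of its value and that percentile.

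A gene on a list was represented by its brightest tested probe set. Named are all protease probe sets, the 2 brightest genes of each list, the genes of the ratios and the 3 genes most like the brightest protease probe set. Listed genes named as dim or below the filter level were added after their values were seen. The members and lists were chosen with earlier results of these data known. The low and high sides are the arrays on either side of the largest step between their averaged log2 hybridization controls. Same-numbered arrays deviated from their group means with correlations of 0.52, 0.263 and -0.043, and differently numbered arrays with correlations of -0.492 to 0.322. These ranges overlap and the labels do not say that the numbers pair samples, so they were not taken to do so.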

Additional observations from a re-analysis of the deposited data

How the results depend on the processing

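Protease probe sets past the threshold stayed at 0 under all 18 alternatives, among them other scalings (quantile, common median), pseudocounts (1, 64), filters (none, 60th percentile) and variance models (untrended, robust). The smallest adjusted p among them was 0.0827 without Ly6G- DC 1. The number of arrays, and for dim probe sets the signal over background, limits these comparisons. With the replicate block (a paired fit on the number in the titles), limma called 19 of all probe sets and 0 of the proteases, whose smallest adjusted p was 0.318. With the array name block it called 21, and 0 of the proteases. Of 365 values of single protease probe sets, 342 kept their direction and 23 reversed, in 9 probe sets, none of them past the threshold. The cause of these changes was not tested.

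The median over the proteases was 0.69 with the common median. With the common median, 1458466_at of Ctsa had 0.12 and 1443814_x_at of Ctsh 0.31. With the hybridization control block, 1417491_at and 1448732_at of Ctsb had -0.0305 and -0.27, 1443814_x_at of Ctsh 0.13 and Lgmn -0.225. With quantile normalization 1417491_at had -0.0258 and Ctss 0.11. Leaving out 1 array gave -0.0704 to 0.37 for 1448128_at and -0.55 to 0.32 for 1458466_at of Ctsa, -0.20 to 0.36 for 1417490_at, -0.25 to 0.20 for 1417491_at and -0.40 to 1.82 for 1448732_at of Ctsb, -0.18 to 0.12 for 1443814_x_at of Ctsh, -0.0034 to 0.29 for 1417869_s_at of Ctsz and -0.30 to 0.67 for Lgmn.

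For lists, medians with the common median were -0.33 (MHC class II), 0.40 (lysosomal membrane), 0.18 (mannose 6-phosphate sorting) and 0.49 (soluble enzymes), and with the hybridization control block 1.19 (cystatins and stefins) and 0.16 (lysosomal membrane). Leaving out 1 array gave 1.07 to 1.94 (cystatins and stefins), -0.47 to 0.26 (Toll-like receptors), -0.0219 to 0.22 (lysosomal membrane), -0.30 to 0.21 (sorting), -0.79 to 0.35 (other cathepsins) and -0.55 to -0.0509 (targets of cathepsin C). Cystatins and stefins past the threshold were 2 with the array name block, 1 with the common median or the replicate block, and 0 to 2 with 1 array left out.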
